A study of Mus musculus with 6 samples.

Results

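The 10 genes described here, *Prox1*, *Wfs1*, *Lct*, *Spink8*, *Nov*, *Dsp*, *C1ql2*, *Fibcd1*, *Ociad2* and *Zbtb20*, appear in marker lists of hippocampal neurons and were measured in libraries of the neighbouring visual cortex. Each symbol matched 1 of the 24453 gene rows of the deposited table. The genes were chosen from marker lists with the difference between knockout and wild type in these same libraries already known, so that difference is given below as a description and supports nothing. Male mice of strain C57BL/6J were perfused with paraformaldehyde at P14 (postnatal day 14), and the visual cortex was taken for stranded mRNA sequencing. There were 3 libraries of *Chrdl1* KO (knockout) and 3 of WT (wild type). A code in the titles is shared by KO1011 and WT1011 (pair A), by KO1012 and WT1012 (pair B), and by KO1013 and WT1013 (pair C). The labels do not say how the knockout was made, what the code stands for, or whether each library is 1 animal, so a p-value here speaks of the spread among libraries, which may be technical. *Chrdl1*, which encodes a secreted antagonist of bone morphogenetic proteins, measured 0.190, 0.120 and 0.172 FPKM in KO1011, KO1012 and KO1013, against 3.57, 3.09 and 3.65 FPKM in WT1011, WT1012 and WT1013. FPKM is a read count scaled to exon length and to library size. The estimated depth was 22.7 to 31.9 megareads in KO and 27.5 to 38.2 megareads in WT.

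The hippocampus lies beneath the medial and posterior cortex and is built from the dentate gyrus, whose granule cells send mossy fibres to CA3, and from the pyramidal cell fields CA3, CA2 and CA1. Its cell types are told apart by genes that one field uses and its neighbours use little. Among the present genes, *Prox1*, *C1ql2*, *Dsp* and *Lct* are known from dentate granule cells, and *Wfs1*, *Fibcd1* and *Spink8* from CA1 pyramidal cells. *Zbtb20* encodes a zinc finger repressor that CA1 needs for its identity. Several are not confined to the hippocampus: *Prox1* is also made by cortical interneurons of the caudal ganglionic eminence, *Wfs1* by upper-layer cortical neurons and *Zbtb20* by astrocytes. No hippocampal library was analysed here, so the level that these genes reach in hippocampus is not known on this scale.

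The sequences that precede the start sites of *C1ql2*, *Dsp* and *Fibcd1* are shown because these 3 genes had their highest level in the same library, KO1012, as did *Spink8*, for which no window was found. They are RefSeq windows on GRCm38.p6, whose chromosomes mm10 shares, and cover the 250 bases before the start, 5′ to 3′ on the gene's strand. RefSeq windows were found for 8 of the 10 genes. Capitals mark an E-box (CANNTG) or a GC box (GGGCGG), searched on both strands. The *C1ql2* window lies on the plus strand at chr1:120340332-120340581, that of *Dsp* on the plus strand at chr13:38151044-38151293, and that of *Fibcd1* on the minus strand at chr2:31846006-31846255.
C1ql2: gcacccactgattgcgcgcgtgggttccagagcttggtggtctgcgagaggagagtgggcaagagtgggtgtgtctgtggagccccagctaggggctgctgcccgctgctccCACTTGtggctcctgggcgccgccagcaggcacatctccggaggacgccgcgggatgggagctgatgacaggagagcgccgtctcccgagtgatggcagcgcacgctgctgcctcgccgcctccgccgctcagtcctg
Dsp: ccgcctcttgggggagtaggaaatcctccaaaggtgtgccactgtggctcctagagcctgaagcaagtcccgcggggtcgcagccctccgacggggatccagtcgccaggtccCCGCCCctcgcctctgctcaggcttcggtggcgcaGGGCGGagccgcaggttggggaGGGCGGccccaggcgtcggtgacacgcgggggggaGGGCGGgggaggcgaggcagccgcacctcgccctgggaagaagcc
Fibcd1: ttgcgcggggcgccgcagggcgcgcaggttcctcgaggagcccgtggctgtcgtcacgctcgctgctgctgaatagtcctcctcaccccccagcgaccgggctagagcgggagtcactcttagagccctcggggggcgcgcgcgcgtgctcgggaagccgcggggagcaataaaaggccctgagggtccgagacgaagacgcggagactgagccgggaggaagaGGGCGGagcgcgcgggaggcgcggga
The *C1ql2* window held 1 E-box and no GC box, the *Dsp* window 4 GC boxes and no E-box, and the *Fibcd1* window 1 GC box and no E-box. Of 32817 RefSeq windows of the same length, 66.2% held an E-box and 32.7% a GC box. The G and C share was 68.8% for *C1ql2*, 72.4% for *Dsp* and 71.6% for *Fibcd1*, against a median of 52.4% over all windows. A high share was not particular to these genes. Among genes highest in other libraries it was 69.6% for *Wfs1*, and 64.8% and 56.0% for windows of *Prox1*. It was 42.8% for *Lct*, 44.4% for *Ociad2* and 44.8% for *Zbtb20*. Neither motif was shared by all 3 windows.

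The levels of the 10 genes spanned 3 orders of magnitude. By mean FPKM over the 6 libraries, the order was *Nov* (162), *Wfs1* (40.3), *Ociad2* (21.2), *Fibcd1* (10.3), *Spink8* (3.98), *C1ql2* (2.82), *Prox1* (2.02), *Lct* (0.702), *Zbtb20* (0.487) and *Dsp* (0.144). The ranges over libraries of *Spink8* and *C1ql2* overlapped, as did those of *C1ql2* and *Prox1*, of *Lct* and *Zbtb20*, and of *Zbtb20* and *Dsp*. The other neighbours in this order did not overlap. The 4 dentate genes stood among the lowest 5, and *Nov*, *Wfs1* and *Ociad2* were the highest 3. For comparison, 12 genes of cortical excitatory neurons summed to 832 to 968 FPKM in KO and 835 to 965 FPKM in WT, with *Slc17a7*, a vesicular glutamate transporter gene, at 627 ± 62.0 FPKM in KO and 610 ± 56.1 FPKM in WT (SD, n = 3 each). In tissue of mixed cells, fewer cells of a type and less RNA per cell cannot be told apart.

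The gene models behind the rows bear on these levels. The row of *Zbtb20* (NM_181058, chromosome 16, 43247284 to 43619123 in mm10) counts over 2909 bp of exon, which is 11% of the 26483 bp of its longest coding transcript in GENCODE vM21, so its FPKM describes a short model of the gene. The row of *Prox1* (NM_008937, chromosome 1, 190121777 to 190170680) covers 4130 bp, or 52.2% of the longest coding transcript. The other 8 rows cover 82.2% to 99.8%. The file header names no strand option for the counting, and exons of *Prox1* overlap the opposite-strand gene *Prox1os* by 133 bp and those of *Dsp* the opposite-strand gene *Gm10129* by 499 bp, so the reads there are uncertain. The other 8 genes had no exon overlap with an opposite-strand gene.

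**Figure D1:**
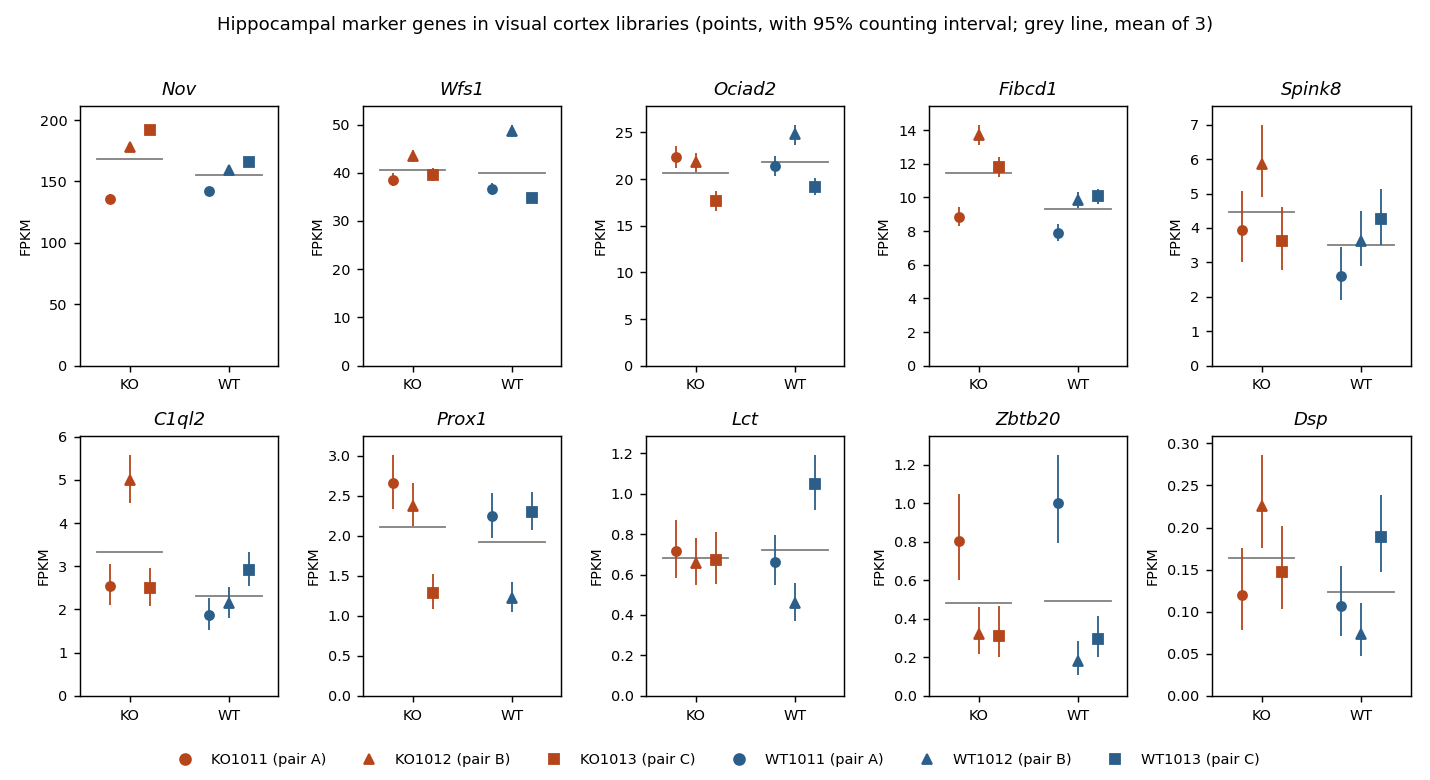
FPKM of each gene in KO libraries (red-brown, left) and WT libraries (blue, right), 1 point per library with marker shape for the pair, bars for the 95% exact Poisson interval of its reads, and a grey line for the mean of 3. KO and WT libraries overlap for all 10 genes, and *C1ql2* stands highest in KO1012 at 4.99 FPKM.

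Among the dentate gyrus genes, *C1ql2* had a single library, KO1012, well above the rest. This gene (NM_207233, chromosome 1, 120340582 to 120343174, plus strand in mm10, 1996 bp of exon) encodes a secreted C1q-family protein that granule cells release at mossy fibre synapses. It measured 2.54, 4.99 and 2.49 FPKM in KO1011, KO1012 and KO1013, against 1.86, 2.15 and 2.91 FPKM in WT1011, WT1012 and WT1013. KO1012 stood above all other libraries, and its 95% counting interval of 4.46 to 5.57 FPKM (318 reads) did not meet that of WT1013, 2.54 to 3.32 FPKM (222 reads), the next highest. The remaining libraries of both genotypes overlapped. Counting intervals here cover the error of counting reads and nothing else.

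*Dsp*, which encodes desmoplakin, a protein that anchors intermediate filaments at desmosomes, was the lowest of the 10 genes. Its row (NM_023842) spans chromosome 13, 38151294 to 38198577, on the plus strand, with 9566 bp of exon. It measured 0.120, 0.226 and 0.147 FPKM in KO1011, KO1012 and KO1013, from 26, 69 and 37 reads, against 0.107, 0.0740 and 0.189 FPKM in WT1011, WT1012 and WT1013, from 28, 24 and 69 reads. KO1012 and WT1013 were thus the highest libraries of their genotypes, and WT1012 was the lowest of all. The counting interval of KO1012 (0.176 to 0.286 FPKM) lay clear of that of WT1012 (0.0472 to 0.110 FPKM), so the difference between those libraries was larger than counting error.

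*Lct*, the lactase gene and in brain a granule cell marker, varied mainly within WT. Its row (NM_001081078) spans chromosome 1, 128284756 to 128328318, on the minus strand, with 6155 bp of exon. It measured 0.717, 0.656 and 0.671 FPKM in KO1011, KO1012 and KO1013, against 0.663, 0.458 and 1.05 FPKM in WT1011, WT1012 and WT1013. The KO libraries lay between the lowest and the highest WT library. The intervals of WT1013 (0.920 to 1.19 FPKM) and WT1012 (0.371 to 0.560 FPKM) did not meet.

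*Prox1*, the homeobox gene that sets and keeps granule cell identity, measured 2.66, 2.38 and 1.29 FPKM in KO1011, KO1012 and KO1013, against 2.25, 1.22 and 2.30 FPKM in WT1011, WT1012 and WT1013. It fell into 4 high libraries and 2 low ones, KO1013 and WT1012, which belong to different genotypes and different pairs. The highest low library had an upper counting bound of 1.53 FPKM (KO1013), and the lowest high library a lower bound of 1.98 FPKM (WT1011). *Prox1* is shared with interneurons. The 10 genes listed for the caudal ganglionic eminence class summed to 493, 598 and 519 FPKM in KO1011, KO1012 and KO1013, against 493, 636 and 511 FPKM in WT1011, WT1012 and WT1013. *Cck* and *Npy* made up most of that sum, so it mainly gives the level of those genes and not of the class. The part of interneurons in the *Prox1* level was not tested.

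Of the CA1 genes, *Fibcd1*, which encodes a membrane receptor with a fibrinogen-like domain, was the only one of the 10 genes higher in KO within every pair. Its row (NM_178887) spans chromosome 2, 31813290 to 31846005, on the minus strand, with 4742 bp of exon. It measured 8.84, 13.7 and 11.8 FPKM in KO1011, KO1012 and KO1013, against 7.90, 9.84 and 10.1 FPKM in WT1011, WT1012 and WT1013. Genotypes still overlapped, since KO1011 lay below WT1012 and WT1013. *Spink8*, of the Kazal family of serine protease inhibitors (NM_183136, chromosome 9, 109816627 to 109826627, plus strand, 672 bp of exon), measured 3.94, 5.87 and 3.61 FPKM in KO1011, KO1012 and KO1013, from 60, 126 and 64 reads. In WT1011, WT1012 and WT1013 it measured 2.60, 3.63 and 4.25 FPKM, from 48, 83 and 109 reads. KO1012 was again the highest library, although its interval of 4.89 to 6.99 FPKM met that of WT1013, 3.49 to 5.12 FPKM. *Wfs1*, the gene of wolframin, a membrane protein of the endoplasmic reticulum (NM_011716, chromosome 5, 36966104 to 36988982, minus strand, 3554 bp of exon), measured 38.5, 43.4 and 39.6 FPKM in KO1011, KO1012 and KO1013, against 36.6, 48.6 and 34.8 FPKM in WT1011, WT1012 and WT1013. Its highest level was in WT1012, so the CA1 genes did not share one order of libraries.

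Of the remaining genes, the highest library exceeded the lowest 1.41-fold for *Nov*, 1.40-fold for *Ociad2* and 5.50-fold for *Zbtb20*. *Nov*, which encodes a secreted matricellular protein of the CCN family (NM_010930, chromosome 15, 54745928 to 54753761, plus strand, 2358 bp of exon), measured 136, 178 and 192 FPKM in KO1011, KO1012 and KO1013, against 142, 159 and 166 FPKM in WT1011, WT1012 and WT1013. In both genotypes it was lowest at pair A and highest at pair C. *Ociad2*, the gene of an OCIA domain protein (NM_026950, chromosome 5, 73322198 to 73338947, minus strand, 2501 bp of exon), measured 22.4, 21.8 and 17.6 FPKM in KO1011, KO1012 and KO1013, against 21.4, 24.8 and 19.2 FPKM in WT1011, WT1012 and WT1013. In both genotypes it was lowest at pair C. *Zbtb20* measured 0.804, 0.323 and 0.313 FPKM in KO1011, KO1012 and KO1013, from 53, 30 and 24 reads, against 1.0, 0.182 and 0.297 FPKM in WT1011, WT1012 and WT1013, from 80, 18 and 33 reads. Both libraries of pair A stood above the other 4, and the interval of KO1011 (0.603 to 1.05 FPKM) lay clear of the highest of those 4, KO1012 (0.218 to 0.461 FPKM). Astrocytes also make *Zbtb20*, and 10 astrocyte genes summed to 943, 950 and 818 FPKM in KO1011, KO1012 and KO1013, against 862, 914 and 855 FPKM in WT1011, WT1012 and WT1013. *Slc1a2*, *Aldoc* and *Slc1a3* made up most of that sum, so it mainly gives the level of those genes. Of the list, *Gfap* and *Sox9* were higher in both libraries of pair A than in the other 4, and most of the other genes were not. The part of astrocytes in the *Zbtb20* level was not tested.

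**Figure D2:**
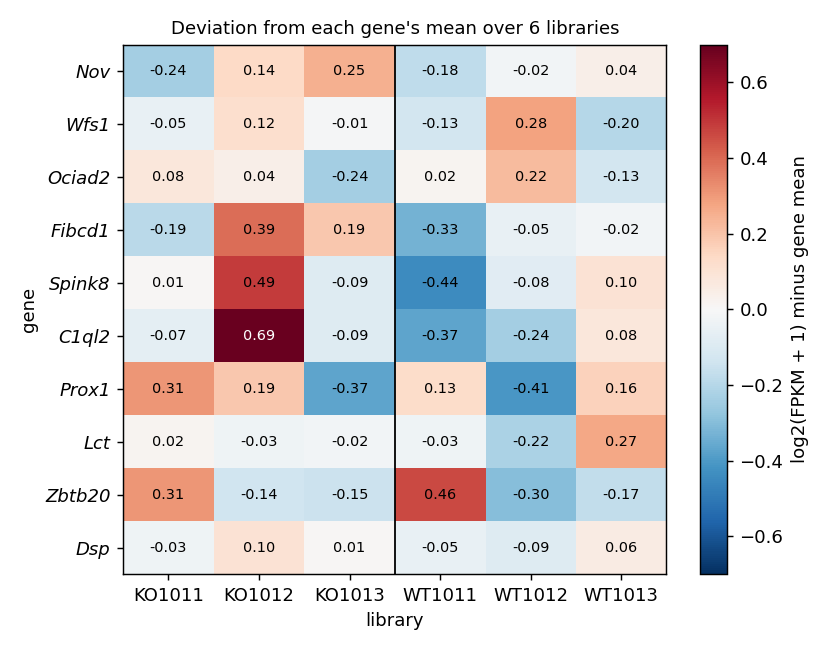
Deviation of each library (columns, KO left and WT right) from the gene's own mean over 6 libraries on the log2(FPKM + 1) scale, for the 10 genes in order of mean FPKM. *C1ql2* in KO1012 is the largest deviation (0.69), and *Zbtb20* is raised in both libraries of pair A (0.31 in KO and 0.46 in WT).

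Differences between the pairs A, B and C were also tested. The choice of genes rested on KO against WT within pairs and not on differences between pairs. Earlier results of these same libraries were known when that choice was made, so the test is not independent of it. The fit was limma on log2(FPKM + 1) with genotype and title code as terms, over the 12863 genes whose mean reached 1 FPKM. The call threshold was an adjusted p (Benjamini-Hochberg) of 0.05. Of the 10 genes, 7 entered it, and *Lct*, *Zbtb20* and *Dsp* fell below the filter. The test called 4 of the 7, against 30.6% of all genes tested, and over the 10 genes the median span of the pair means was 0.34 on the log2 scale, against 0.20 over all genes tested. *Fibcd1* had mean log2 levels of 3.23, 3.66 and 3.57 at pairs A, B and C (limma adjusted p 0.0174), and *Nov* of 7.13, 7.40 and 7.49 (limma adjusted p 0.0185). *Ociad2* had 4.51, 4.60 and 4.28 (limma adjusted p 0.0284), and *Wfs1* 5.27, 5.55 and 5.25 (limma adjusted p 0.0420). *Spink8*, *C1ql2* and *Prox1* were not called, with limma adjusted p of 0.181, 0.278 and 0.399, although their pair means spanned 0.42, 0.45 and 0.33 on the log2 scale and those of *Wfs1* 0.30.

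Each of the 4 calls rested on particular libraries. *Fibcd1* was lost without KO1011 (limma adjusted p 0.0542) or WT1013 (0.0512), *Nov* without KO1013 (0.0618), *Ociad2* without KO1013 (0.158) or WT1013 (0.109), and *Wfs1* without WT1012 (0.347) or WT1013 (0.0776). With no filter on low values all 4 were lost (limma adjusted p 0.0692 to 0.124), and *Zbtb20*, which enters only there, was called (limma adjusted p 0.0397). *Fibcd1* was also lost without the genotype term (0.0694). *C1ql2* was called without WT1012 (limma adjusted p 0.00316), *Prox1* without KO1012 (0.0210), and *Spink8* without KO1013, WT1012 or WT1013 (0.0309 to 0.0325).

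**Figure D3:**
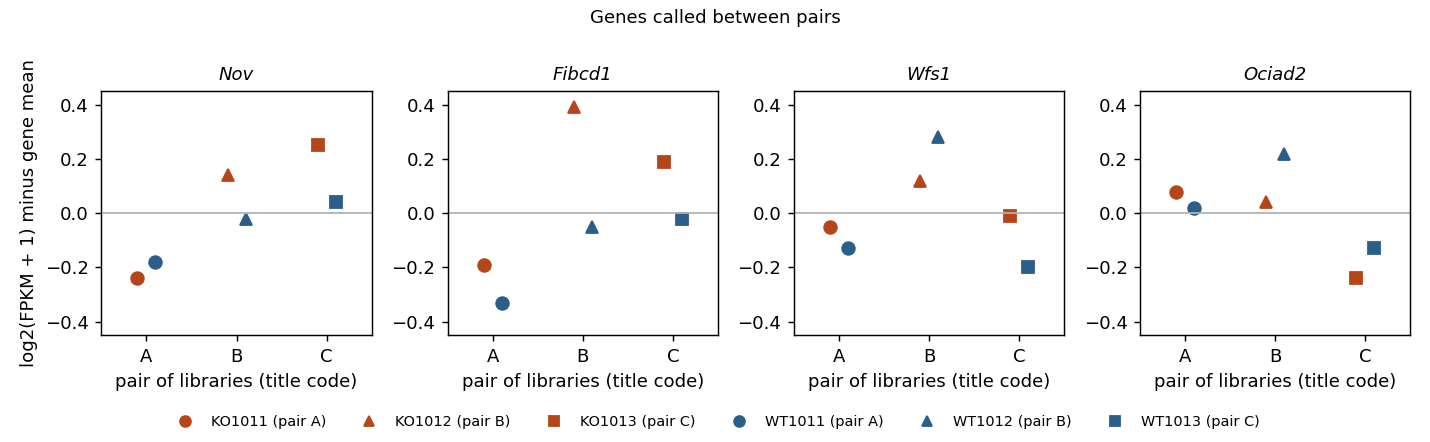
Deviation from the gene's mean on the log2(FPKM + 1) scale by pair, for the 4 genes called between pairs, with KO in red-brown left of WT in blue and 1 point per library. *Nov* and *Fibcd1* are lowest at pair A in both genotypes, and *Ociad2* is lowest at pair C in both.

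Between genotypes the 10 genes did not move as one. As a description, the KO minus WT difference on the log2(FPKM + 1) scale was 0.36 for *C1ql2* (SE 0.22), 0.28 for *Spink8* (SE 0.19), 0.26 for *Fibcd1* (SE 0.16), 0.11 for *Nov* (SE 0.13), 0.08 for *Prox1* (SE 0.21), 0.03 for *Wfs1* (SE 0.13) and -0.08 for *Ociad2* (SE 0.12). For the genes below the filter it was 0.05 for *Dsp*, 0.01 for *Zbtb20* and -0.02 for *Lct*. The SE above came from the fit without the title code. Adding the title code as a replicate block gave an SE of 0.18 for *C1ql2*, 0.14 for *Spink8* and 0.07 for *Fibcd1*. In that fit it was 0.06 for *Nov*, 0.19 for *Prox1*, 0.07 for *Wfs1* and 0.06 for *Ociad2*. The mean was higher in KO for 8 of the 10 genes and lower for 2, with a median of 0.07, and over all genes tested the median was 0.005, with 6921 higher in KO and 5942 lower. By limma 0 of the 7 genes in the fit were called, with 0.00777% of all genes called (1 gene, *Chrdl1*), and 0 of 7 had an unadjusted p under 0.05, as 0.63% of all genes had. With the title code as a replicate block 0 of 7 were called, again with 0.00777% of all genes, and 1 of 7 (*Fibcd1*) had an unadjusted p under 0.05, as 3.91% of all genes had. Voom on reads recovered from the FPKM called 0 of the 7 with or without the block. KO lay above WT without overlap for 0 of the 10 genes, as for 1.76% of genes tested, and below WT without overlap for 0 of 10, as for 1.19%.

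Within pairs the median direction was the same at pairs A and B and opposite at pair C. The median of the 10 genes was 0.07 at pair A, 0.19 at pair B and -0.08 at pair C. KO was higher for 8 of the 10 genes at pair A, 8 at pair B and 4 at pair C. KO was higher in every pair for 1 of the 10 genes, *Fibcd1*, with differences of 0.14, 0.44 and 0.21, as for 12.3% of genes tested. KO was lower in every pair for 0 of the 10, as for 9.59%. *C1ql2* had differences of 0.31, 0.93 and -0.17 at pairs A, B and C, *Spink8* 0.46, 0.57 and -0.19, and *Prox1* 0.17, 0.60 and -0.53. The KO to WT ratio of FPKM at pair B was 3.05 for *Dsp*, 2.32 for *C1ql2*, 1.95 for *Prox1* and 1.62 for *Spink8*, and at pair C it was 0.778, 0.855, 0.562 and 0.850 for the same genes. All 4 dentate genes, *Lct* included (ratios 1.43 and 0.641), were thus higher in KO at pair B and lower in KO at pair C, as was *Spink8*, which makes 5 of the 10 genes. That order was found for 5 of the 12 further dentate genes and for 25.5% of all genes tested. It was read from the 10 genes themselves, which were chosen with KO against WT known. These counts are therefore a description and not a test. The differences over all pairs were smaller without KO1012, at 0.10 for *C1ql2*, 0.10 for *Spink8* and 0.13 for *Fibcd1*.

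**Figure D4:**
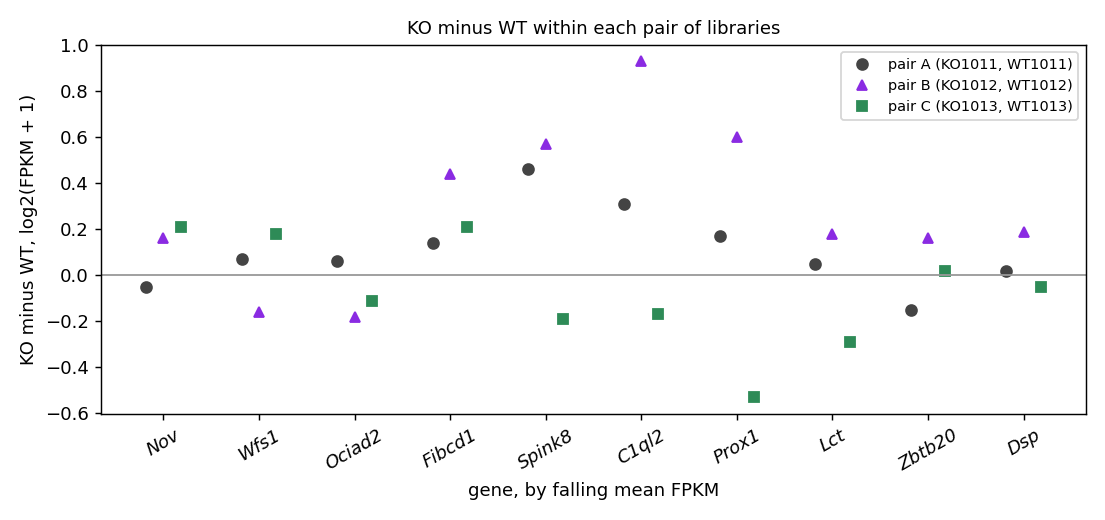
KO minus WT difference of each gene within pairs A (grey circles), B (purple triangles) and C (green squares) on the log2(FPKM + 1) scale, with genes ordered by falling mean FPKM. *C1ql2* ranges from -0.17 at pair C to 0.93 at pair B, and *Fibcd1* alone is above 0 in all 3 pairs.

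Genes of the choroid plexus, the ventricular epithelium that makes cerebrospinal fluid, were high in the same libraries as several of the marker genes. *Ttr*, the transthyretin gene, measured 3.09, 310 and 5.46 FPKM in KO1011, KO1012 and KO1013, against 2.88, 4.38 and 150 FPKM in WT1011, WT1012 and WT1013. The summed level of 7 choroid plexus genes ranged from 5.23 to 316 FPKM in KO and from 5.05 to 153 FPKM in WT. In KO1012 and WT1013 *Ttr* made up nearly all of that sum. KO1012 was the highest library for 7 of the 7 and WT1013 the next for 6. Only *Ttr* had a mean of 1 FPKM or more, and the other means were 0.146 to 0.723 FPKM. The order of libraries for those other genes thus rests on low values. Of the 7, *Otx2* alone was at 0 in a library, WT1011. KO1012 and WT1013 stood above the other 4 libraries for *Dsp*, *C1ql2* and *Spink8*, which is 3 of the 10 genes, as they did for 4.59% of genes tested. *Lct* was highest in WT1013 but not raised in KO1012, and *Prox1* was as high in KO1011 and WT1011 as in those libraries. KO1012 was the highest library for 4 of the 10 genes (*Fibcd1*, *Spink8*, *C1ql2* and *Dsp*), as for 15.0% of genes tested, and WT1012 the lowest for 4 (*Prox1*, *Lct*, *Zbtb20* and *Dsp*), as for 23.2% of genes tested. Without both KO1012 and WT1013 the KO minus WT differences were 0.23 for *C1ql2*, 0.23 for *Spink8*, 0.06 for *Dsp* and 0.12 for *Lct*. The part of choroid plexus or neighbouring tissue in these levels was not tested.

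**Figure D5:**
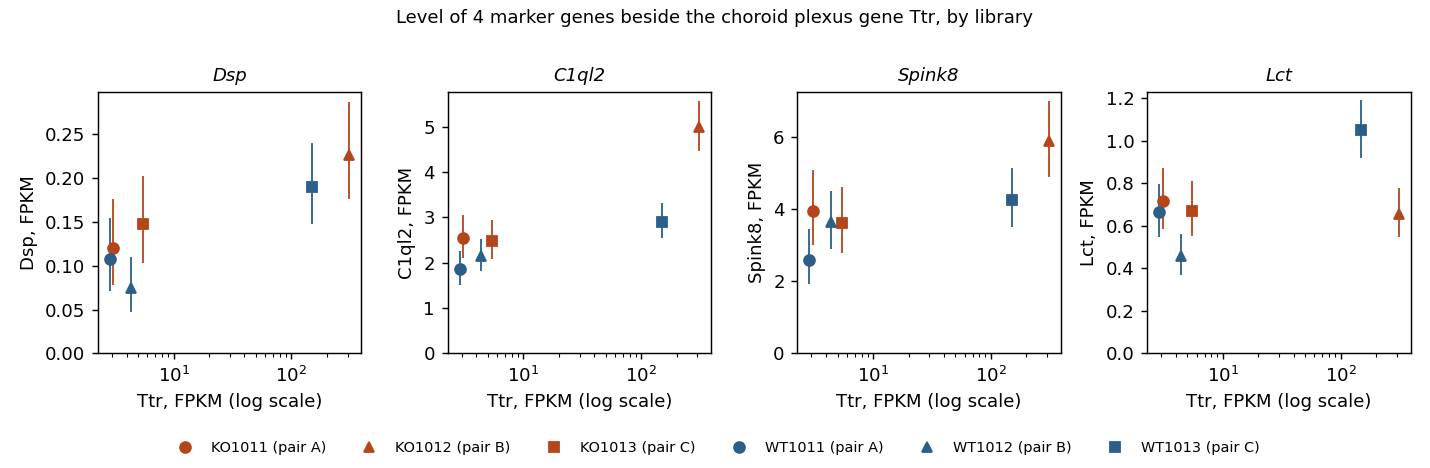
FPKM of *Dsp*, *C1ql2*, *Spink8* and *Lct* (vertical axes, with 95% exact Poisson intervals) against FPKM of the choroid plexus gene *Ttr* (horizontal axis, log scale), 1 point per library, KO red-brown and WT blue. KO1012 (*Ttr* 310 FPKM) and WT1013 (*Ttr* 150 FPKM) are the highest libraries for *Dsp*, *C1ql2* and *Spink8*, and for *Lct* only WT1013 is.

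Further genes known from the hippocampus, taken as lists, were not called between genotypes. Of 49 genes in 6 lists for the dentate gyrus, CA1, CA2, CA3, the subiculum and transcription factors of hippocampal development, 41 entered the KO against WT fit, and limma called 0 higher and 0 lower, as did voom. At an unadjusted p under 0.05 there was 1 of 41, *Fn1* of the subiculum list, against 0.63% of all genes tested, and 6 of 41 with the replicate block, against 3.91%. The 12 further dentate genes had a median difference of -0.01 on the log2 scale, with 5 higher in KO and 7 lower. They included *Calb1*, the calbindin gene, at 51.7 ± 6.61 FPKM in KO and 52.7 ± 4.53 FPKM in WT (SD, n = 3 each), and *Npnt*, an extracellular matrix gene, with a difference of 0.09. Their sum was 129, 146 and 144 FPKM in KO1011, KO1012 and KO1013, against 133, 140 and 142 FPKM in WT1011, WT1012 and WT1013. KO1012 was thus the highest library, followed by KO1013 and then by WT1013, within a narrow range that *Calb1* and *Npnt* dominated. The part of hippocampal tissue in these sums, or in the levels of the 10 genes, was not tested. The 7 further CA1 genes had a median of 0.03, with 6 higher in KO and 1 lower. *Crym*, which encodes a thyroid hormone binding protein, measured 95.2, 155 and 137 FPKM in KO1011, KO1012 and KO1013, against 90.0, 129 and 132 FPKM in WT1011, WT1012 and WT1013, lowest at pair A in both genotypes as *Fibcd1* and *Nov* were. *Hpca*, the hippocalcin gene, had a difference of -0.05.

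The fields beyond CA1 were close to no difference as lists. The 11 CA2 genes had a median of 0.02 (*Pcp4*, a calmodulin-binding peptide gene, -0.19 and *Necab2* 0.03), the 7 CA3 genes 0.02 (*Spock1* -0.04 and *Bok* 0.03), and the 4 subiculum genes -0.05 (*Fn1*, the fibronectin gene, 0.27 and *Nts*, the neurotensin gene, -0.21). The 8 developmental transcription factors had a median of 0.07 (*Nfix* 0.19 and *Lhx2* 0.10), with 7 higher in KO and 1 lower. Between pairs, 19 of the 41 were called, against 30.6% of all genes tested. Many of these genes are also used by cortical neurons, so the lists are not specific to hippocampus.

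The genes whose pattern over the 6 libraries was most like each of the 7 genes past the filter were found by the root mean square difference of centred log2(FPKM + 1) values, over 12862 candidates. *C1ql2* had *Spink8* as its nearest gene of all candidates (0.113), followed by *Snrpg* and *Capsl* (0.149 each). *Spink8* had *Snrpg* (0.106), *Bst2* (0.108) and then *C1ql2* (0.113). *Prox1* was nearest to *Ndst4* (0.069), *Eps8l1* (0.104) and *Pcdh20* (0.110). *Fibcd1* was nearest to *Grp* (0.052), the gene of gastrin-releasing peptide, *Ngb* (0.061) and *Ntf3* (0.065), the gene of neurotrophin-3. *Nov* was nearest to *Nes* (0.035), *Ddah2* (0.038) and *Fasn* (0.041), and *Wfs1* to *Rab24* (0.030), *Arl4d* (0.036) and *Pnrc1* (0.037). *Ociad2* was nearest to *Gad1* (0.015), the gene of a GABA-synthesising enzyme, at 81.0, 80.7 and 64.5 FPKM in KO1011, KO1012 and KO1013, against 79.2, 89.4 and 70.9 FPKM in WT1011, WT1012 and WT1013, then to *Lgi3* (0.026) and *Kcnk13* (0.031). The points share their libraries, and with 6 values such likeness is a description.

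Markers of other tissue near the visual cortex also differed between the libraries. The summed level of 12 striatal genes (*Ppp1r1b* and *Penk* highest) was 318, 138 and 137 FPKM in KO1011, KO1012 and KO1013, against 301, 272 and 323 FPKM in WT1011, WT1012 and WT1013. It was low in KO1012 and KO1013, the libraries with the highest 2 levels of *Fibcd1*, while *C1ql2* was high in KO1012 and not in KO1013. The 11 meningeal genes (*Igf2* and *Dcn* highest) summed to 103 to 128 FPKM in KO and 93.3 to 101 FPKM in WT, the 5 retrosplenial genes (*Lypd1* and *Nr4a2* highest) to 88.2 to 93.2 FPKM in KO and 79.8 to 84.2 FPKM in WT, and the 8 thalamic genes (*Ramp3* and *Slc17a6* highest) to 47.9 to 52.7 FPKM in KO and 44.3 to 50.3 FPKM in WT. The 10 myelin genes summed to 1419 to 2734 FPKM in KO and 1796 to 2982 FPKM in WT. Limma called 0 genes of these 5 lists between genotypes, and voom on recovered reads 0. At an unadjusted p under 0.05 there were 4 of the 12 striatal genes (all lower in KO), 2 of the 11 meningeal genes (*Col1a2* and *Fmod*, higher in KO) and 1 of the 5 retrosplenial genes (*Tshz2*, higher in KO, which voom with the replicate block called), against 0.63% of all genes tested. With the replicate block there were 10 of the 12 striatal, 5 of the 11 meningeal and 3 of the 5 retrosplenial genes, against 3.91% of all genes tested. The part of these tissues in the levels of the 10 genes was not tested.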

How the data were processed

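Messenger RNA of mouse visual cortex was measured in 6 libraries, 3 per genotype. The authors deposited 1 table of FPKM values, made per the file headers with HOMER on mm10, counting over exons with 1 row per gene, and per the submitters' processing notes with STAR 2.4.0k, HOMER 4.8.3 and FastQC. A row need not cover all transcripts of its gene. That of *Zbtb20* held 2909 bp, against 29761 bp for all its GENCODE exons joined, and that of *Prox1* 4130 bp, against 8390 bp. The deposited exon length (bp) is given per row. The command names 12 libraries, of which 6 are analysed here. The genes and lists were chosen with earlier results of these data known. Of 135 list entries in 15 lists, 134 matched a symbol and 1 an older symbol of a gene already listed.

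Reads were recovered from the FPKM steps: with the best total per library, 100.0% of 4897 to 7147 values checked were whole within 0.1 read. The test was limma 3.58.1 (R 4.3.3) with an intensity trend, 2-sided, on log2(FPKM + 1), which understates changes of low genes, over genes whose mean reached 1 FPKM. With 3 against 3 libraries an exact permutation test of 1 gene cannot go below p = 0.1, so none was used.

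Over tested genes, KO and WT libraries with the same title code deviated together from their group means (correlation across genes 0.71, 0.67 and 0.43 at pairs A, B and C, and -0.61 to -0.06 for other pairings), so the codes pair the libraries. Deviations from a group mean cancel within the group, so the negative values follow in part from the centring. Any 2 libraries differed by more than sampling noise (lowest chi-square over its degrees of freedom 2.88), so none was a plain copy of another. Each was counted as 1 sample, but the chi-square cannot show that each is a separate animal. Named genes are the 10 genes, *Chrdl1*, the 2 most abundant of each list, the 3 nearest genes of each filtered gene, and genes singled out after their values were seen (*Otx2*, *Prox1os*, *Gm10129*, *Gfap*, *Sox9*, *Slc1a3* and those at an unadjusted p under 0.05). Figures were drawn with matplotlib 3.10.9 and intervals computed with scipy 1.17.1 (numpy 2.4.6, pandas 2.3.3, Python 3.11.15).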

Additional observations from a re-analysis of the deposited data

How the results depend on the processing

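The count of genes called between KO and WT, 1 in the main setting, was 2 with a pseudocount of 0.1, 6 with no filter on low values, 0 of 8811 with a mean of 5 FPKM or more (34 at an unadjusted p under 0.05), and 1 with median centring, with voom on recovered reads and with the title code as a replicate block. It was 2 with voom and the replicate block together and 0 without KO1012 and WT1013 together (43 at an unadjusted p under 0.05), both chosen after seeing the data. Leaving out 1 library gave 1 to 4 calls (4 without KO1011, 2 without WT1011). The count between pairs, 3936, was 1347 with no filter and between 2038 and 3923 with 1 library left out (2038 without WT1013, 2076 without KO1013), where the lone library of a pair was assumed to vary like the others. It stayed within 1.5 times under the other alternatives. The median KO minus WT difference of the 10 genes, 0.07, moved by less than the spread between pairs under all alternatives run, from 0.04 to 0.16. With 1 library left out, *C1ql2* ranged from 0.10 to 0.49, *Spink8* from 0.10 to 0.40 and *Fibcd1* from 0.13 to 0.42, and the sign of *Prox1*, *Wfs1*, *Lct*, *Ociad2* and *Zbtb20* changed. *Dsp*, at 24 to 69 reads per library, was 0.05 on log2(FPKM + 1), 0.26 with a pseudocount of 0.1 and 0.47 on the voom scale, and its depth limits what can be said.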
